A study of Mus musculus with 4 samples.

Results

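RMER repeats are a set of rodent repeat families, most of them the long terminal repeats (LTRs) that flank endogenous retroviruses. They were taken from a deposited table of 36284 annotated repeat copies as every row whose repeat name starts with RMER, which gave 1283 copies with 53 of the 1040 repeat names. RNA came from BALB/c mouse embryonic fibroblasts (MEFs) at passage 2. The GFP control cells, below also called the control, carried a lentivirus of green fluorescent protein. The SON cells carried a lentivirus of 3 genes that are normally used by germ cells or early embryos, namely Stella (Dppa3), Oct4 (Pou5f1) and Nanos2. Cells of both groups were selected with puromycin at 2 µg/ml for 4 days from 72 h after infection and were then kept for 21 days without it. Each group had 2 libraries, and the labels name no cell clone and no sort beyond this selection. The comparison that the labels define is SON against GFP control, and here it is read for RMER copies one by one and summed per repeat name.

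An LTR holds the promoter and the polyadenylation signal of a retrovirus, so a copy can be read as its own transcript, or as part of a gene's transcript when it lies inside that gene. Names that end in -int are the internal part between a pair of LTRs, and most copies in a genome are solitary LTRs left after recombination. In the mouse such elements are silenced by zinc finger proteins that recruit Trim28 and the histone methyltransferase Setdb1, and by DNA methylation. The names RMER1A to RMER1C and RMER30 share the prefix but are not LTR elements in common repeat catalogues, and RMER30 is a DNA transposon. They are kept because the row names select them, and the other 1130 copies with 49 names are given apart where it matters. Of the 1283 copies, 99 copies with 6 names were internal parts. The genome position and the sequence of each copy were not used here, so it was not determined whether a copy lies in an exon, an intron, an untranslated region or between genes, nor whether its reads are its own transcript or that of a surrounding gene.

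Values are normalized counts, which are reads divided by 1 size factor per library. The repeat table names its libraries by group and by a letter, a or b. Reads in repeats came to 850223 in GFP control a, 1119717 in GFP control b, 565399 in SON a and 469737 in SON b, so the SON libraries were shallower. SON a stood apart. Ribosomal RNA names took 22.3% of its repeat reads, against 7.84% in SON b and 1.97% and 3.33% in the GFP control libraries. The 3 delivered genes were read in SON at means of 317 to 437 normalized counts and at 0 to 0.297 in the GFP control, and limma called all 3 higher (adjusted p at most 0.0326). All 10 fibroblast markers were detected, with sums of 453590 and 815793 in the control and 403126 and 466860 in SON. Their median log2 difference was -1.04, and limma called 0 of the 10. At an unadjusted limma p under 0.05, 4 were lower and 0 higher. Over all 15283 genes tested, 6.57% were lower and 5.99% higher at this threshold. DESeq2 called 4 of the 10, and its share over all genes was not computed. Those that DESeq2 called were lower, namely Lum (limma log2 difference -3.82), Dcn (-2.59), Pdgfra (-1.78) and Col1a2 (-1.19). Of the 10, 6 had a negative and 4 a positive difference, so the sums hide opposite moves. Of 8 macrophage markers, limma called 0 of the 6 that were tested (0 of them at an unadjusted p under 0.05 and 0 by DESeq2). All 6 tested markers had a negative difference, with a median of -0.70 (all tested genes -0.01). The sums of the 8 ranged from 989 to 1245 in the control and from 325 to 1064 in SON. Adgre1, Tyrobp and Fcer1g were at 0 in SON I. Of 6 epithelial markers, limma called 0 of the 3 that were tested, with 2 higher at an unadjusted p under 0.05 (background over all genes 5.99%). DESeq2 called 2, again without a share over all genes to set beside it. The 6 markers summed to 183 and 378 in the control and to 660 and 968 in SON. The defining markers Epcam and Cdh1 lay between 1.36 and 11.8 in each library. Dsp had 18.4 and 89.8 in the control and 224 and 695 in SON (log2 difference 3.24, limma adjusted p = 0.286, DESeq2 adjusted p = 0.00124), and Krt19 had 90.2 and 120 and then 295 and 197 (1.202, limma adjusted p = 0.274, DESeq2 adjusted p = 0.0371). The part of these cell markers in the RMER results was not tested.

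RMER copies together were read a little less in SON, with 2 libraries a group. For this sum the planned permutation test cannot reach a p under 0.05. The summed RMER level was 29555 in GFP control a, 27187 in GFP control b, 23116 in SON a and 26654 in SON b. Both SON libraries lay below both GFP control libraries, and SON b lay close to GFP control b. The means were 28371 ± 1675 in the control and 24885 ± 2502 in SON (SD, n = 2), a difference of -0.19 on the log2 scale (two-sided exact permutation test, p = 0.333, the smallest p that 6 arrangements allow). In bulk RNA, fewer cells that read a repeat and less RNA per cell cannot be told apart. Without SON a the difference was -0.089, and without SON b it was -0.29. Scaled to repeat reads outside ribosomal RNA names, it was -0.071.

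The RMER share of all repeat reads was 4.16% and 4.08% in the control and 3.01% and 3.86% in SON. Outside ribosomal RNA names it was 4.24% and 4.22% in the control and 3.87% and 4.19% in SON. The gap of SON a to the GFP control was thus smaller once ribosomal RNA names were left out, while SON b then lay next to the GFP control libraries. The 1130 copies without RMER1 and RMER30 gave a summed log2 difference of -0.20, and the 99 internal copies gave -0.22, both near the -0.19 of all RMER copies. The summed difference was -0.08 for the 72 copies whose name starts with IAP, the intracisternal A particle family of active mouse retroviruses. For the 1461 copies of ORR1, an older and abundant rodent LTR family, it was -0.20. For all repeat copies together it was 0.08, but that sum holds the ribosomal RNA names and is not a like comparison. Scaled to repeat reads outside those names, the RMER difference was -0.071. This scaling made the RMER difference smaller, so repeat reads outside those names were also lower in SON on the deposited scale. The size of their own difference was not computed.

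RMER reads were concentrated in few copies. The copy with the most reads held 9.93% of all 116159 RMER reads, the first 3 held 22.0%, the first 10 held 29.1% and the first 100 held 51.8%. At the other end, 792 of the 1283 copies had under 50 reads over the 4 libraries, the median was 40 reads, and the table starts at 21 reads. No RMER copy had 0 reads in both GFP control libraries. In SON, 5 copies had 0 reads in both libraries, namely RMER1C_844, RMER15_4504, RMER17C_3040, RMER17C_3174 and RMER16-int_1827, which had 8 to 19 reads in each GFP control library. A count of 0 allows up to 3 reads, which is 4.08 and 4.41 normalized counts in SON a and b and covers counting error only, so these 5 copies were too shallow for a fold and did not pass the filter on low values.

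The differences of single copies passed no adjusted threshold, and their counts were near those of all repeat copies. Of the 1283 RMER copies, 684 passed the filter on low values (filterByExpr of edgeR). By limma 0 of them were called at an adjusted p under 0.05, and the smallest adjusted p was 0.165, while over all 17390 repeat copies tested 0% were called lower and 0% higher. At an unadjusted p under 0.05, 51 RMER copies were lower in SON (7.46%, where the background over all repeat copies was 6.38%) and 19 were higher (2.78%, background 3.15%). The 2 SON values lay below both GFP control values in 180 copies (26.3%, background 24.2%) and above both in 110 copies (16.1%, background 17.1%). A negative difference was found in 403 copies (58.9%, background 56.6%) and a positive one in 281 (background 43.4%). Each of these RMER shares was near that of all repeat copies.

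The median log2 difference of the 684 RMER copies was -0.17, that of all tested repeat copies -0.11, that of the tested IAP copies 0.01 and that of the tested ORR1 copies -0.17. The median distance of the 2 libraries of a group from each other was 0.48 in the control and 0.64 in SON, against a median size of 0.51 for the difference between the group means. Scaling to repeat reads outside ribosomal RNA names moved the median of all copies from -0.11 to 0.01 and that of RMER copies to -0.052. A scaling by 1 factor per library shifts all copies alike and leaves the difference of the medians (-0.06) as it is. Without SON a the RMER median was 0.018, that of all copies 0.003 and the difference of the medians 0.015.

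Other tests on the recovered whole reads gave 0 calls with edgeR and with limma voom. DESeq2 called 6 RMER copies lower (background 0.9%) and 0 higher (background 0.417%), of the 283 RMER copies for which it gave an adjusted p. The number of limma calls depended on the libraries used: it was 0 without GFP control a (background 0.104%), 10 without GFP control b (1.46%, background 1.01%), 36 without SON a (5.26%, background 5.04%) and 63 without SON b (9.21%, background 6.66%), so the RMER counts moved with those of the whole table. In each of these fits the lone library of a group was assumed to vary like the pair of the other group.

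**Figure D1:**
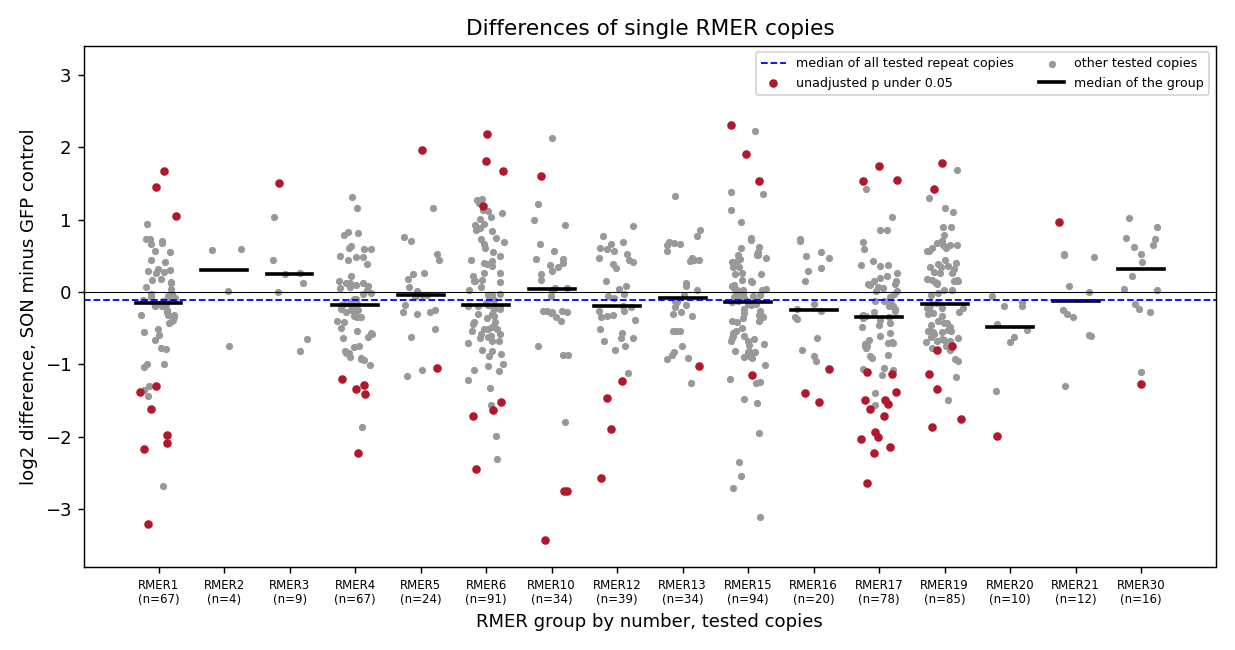
Log2 difference (SON minus GFP control, vertical axis) of each of the 684 tested RMER copies, by the number after RMER (horizontal axis, n tested copies below each group). Red points have an unadjusted limma p under 0.05 (51 below 0 and 19 above 0, 0 of them past the adjusted threshold), black bars are group medians, and the dashed line is the median of all tested repeat copies at -0.11.

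By the number after RMER, the groups spread on both sides of the median of all copies. RMER17, a group of LTRs and internal parts with 10 names, had 148 copies, 78 of them tested. Its summed level was 3299 and 2857 in the control and 2147 and 2534 in SON, with no overlap of the groups (log2 difference -0.40). Of its tested copies 53 had a negative difference, the median was -0.34, and 14 were lower and 3 higher at an unadjusted p under 0.05. The shares were 17.9% and 3.85%, beside the backgrounds of 6.38% and 3.15% given above. The 14 lower copies are not 14 separate observations, since they lay at 10 places more than 6 rows apart in the table, or at 9 places more than 7 rows apart. RMER19, with 4 names and 155 copies, summed to 5280 and 4277 in the control and to 3480 and 3494 in SON. Its libraries did not overlap either (log2 difference -0.45), although the median of its 85 tested copies was -0.16 and 46 of them were negative.

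RMER20 had a negative difference in all 10 of its tested copies, where 56.6% of all tested repeat copies were negative. Only 1 of the 10 had an unadjusted limma p under 0.05. In 3 of them SON lay lower without overlap (30%, background 24.2%), and the median RMER20 copy had 34 reads. Its sum was 343 and 328 in the control and 285 and 266 in SON, and the median of its tested copies was -0.48. RMER30, the DNA transposon, leaned the other way with a median of 0.32, and 5 of its 16 tested copies were negative. It summed to 411 and 439 in the control and to 436 and 523 in SON, so that its groups overlapped. The remaining groups had medians between -0.24 in RMER16 and 0.30 in RMER2, a group of only 4 tested copies. The internal parts had a median of -0.01 over 54 tested copies and the other RMER copies one of -0.17 over 630. These groups were not tested against each other.

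Summed per name, 51 of the 53 RMER names were tested and limma called 0 of them, against a background of 0.53% called lower and 0.318% called higher over the 943 repeat names tested. At an unadjusted p under 0.05, 6 RMER names were lower and 0 higher, where the backgrounds were 9.33% and 2.55% (limma). The SON libraries lay below both GFP control libraries in 17 names (background 32.1%) and above both in 3 names (background 13%), and they overlapped in 31. A negative difference was found in 41 names (background 67.8%) and a positive one in 10 (background 32.2%). By edgeR and limma voom 0 names were called, while DESeq2 called 2 lower (background 3.37%) and 0 higher (background 1.05%), of the 38 RMER names to which it gave an adjusted p. These were RMER17A-int and RMER17A2.

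**Figure D2:**
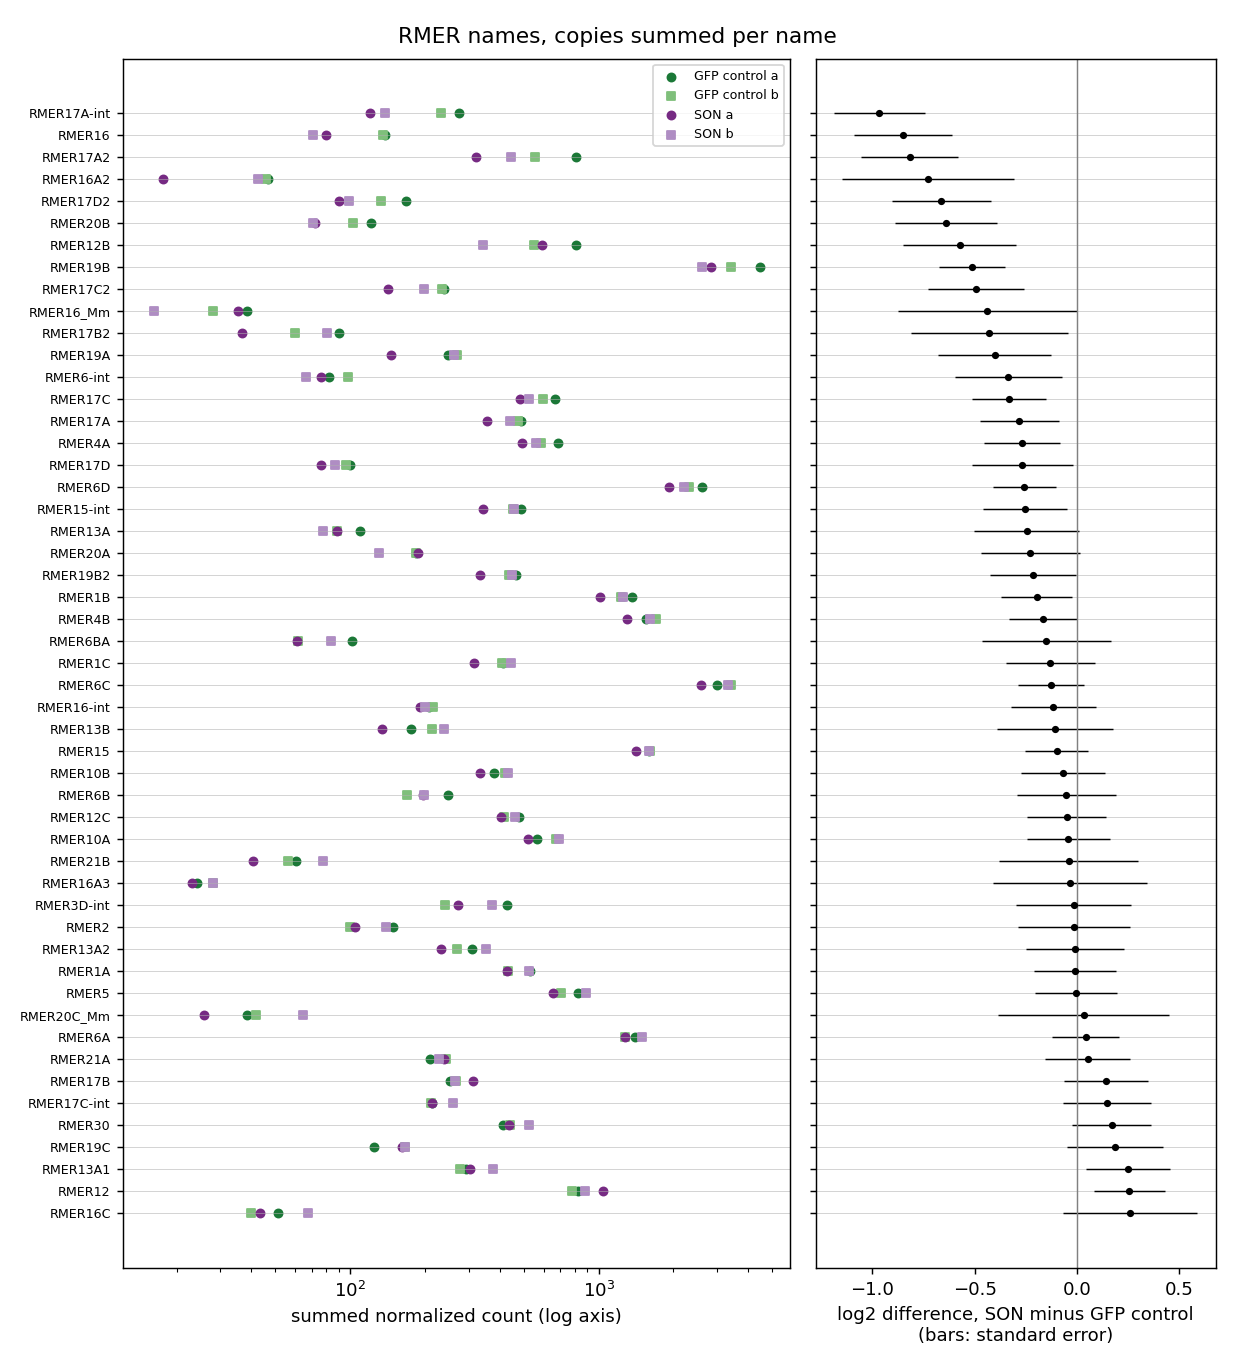
Summed normalized count of each of the 51 tested RMER names in the 4 libraries (left, log axis) and the fitted log2 difference with its standard error (right), sorted by the difference. The differences run from -0.97 in RMER17A-int to 0.26 in RMER16C, and 41 of the 51 lie below 0.

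RMER17A-int, the internal part of RMER17A elements, had 8 copies and summed to 274 and 232 in the control and to 120 and 138 in SON. The groups were well apart. The log2 difference was -0.97 ± 0.22 (SE, limma adjusted p = 0.0843), and DESeq2 gave an adjusted p of 0.0421. The copy RMER17A-int_230 held 47.3% of the reads of this name, and without it the difference was -0.24.

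RMER17A2, an LTR, had 17 copies and summed to 807 and 553 in the control and to 322 and 446 in SON. Both SON libraries were lower, with a wide spread within each group. The log2 difference was -0.82 ± 0.24 (SE, limma adjusted p = 0.179), DESeq2 gave an adjusted p of 0.0476, and without the copy with the most reads, which held 15.9% of them, the difference was -0.84. Without RMER17A2_2122 and RMER17A2_2123, which stood 7 rows apart in the table, the name summed to 545 and 380 in the control and to 279 and 387 in SON, so that the groups overlapped (-0.47).

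The 4 most negative names also held a pair from RMER16. RMER16, with 7 copies, summed to 138 and 135 in the control and to 80.2 and 70.6 in SON (log2 difference -0.85 ± 0.24 SE, limma adjusted p = 0.174). Its libraries agreed closely within each group and did not overlap. RMER16A2, with 5 copies and 175 reads in all, summed to 46.8 and 45.8 in the control and to 17.7 and 42.6 in SON (-0.73 ± 0.42 SE, limma adjusted p = 0.508). Here SON b lay near the GFP control and only SON a was far below.

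None of the 4 most positive names approached the threshold, and 2 of them changed sign without 1 copy. RMER12 summed to 825 and 784 in the control and to 1042 and 885 in SON (log2 difference 0.26 ± 0.17 SE, limma adjusted p = 0.597). The groups did not overlap, but RMER12_225 held 53.3% of the reads and without it the difference was -0.15. RMER16C, with 2 copies, summed to 51.0 and 39.9 in the control and to 43.5 and 67.6 in SON, which overlapped (0.26, and -0.80 without the copy that held 68.0% of its reads). RMER13A1 summed to 292 and 277 in the control and to 304 and 376 in SON (0.25, limma adjusted p = 0.68), and RMER19C to 125 and 166 and to 162 and 166 (0.19, limma adjusted p = 0.781). Over all tested RMER names, 10 changed sign when the copy with the most reads was left out.

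Of the 5 names with the most reads, RMER19B had the most negative difference. Its 94 copies summed to 4445 and 3407 in the control and to 2841 and 2616 in SON. Both SON libraries lay below both GFP control libraries, but the gap between the groups was smaller than the distance between the GFP control libraries. The log2 difference was -0.51 ± 0.16 (SE, limma adjusted p = 0.22), and -0.41 without RMER19B_4513, which held 32.7% of its reads. Without both RMER19B_4513 and RMER19B_5140 the name summed to 2070 and 1946 in the control and to 1780 and 1787 in SON (-0.17), so most of the difference of RMER19B came from 2 copies. RMER15, an LTR of the ERVL class, was the most evenly spread: its first copy held 5.49% of the reads of 124 copies. It summed to 1599 and 1613 in the control and to 1412 and 1592 in SON (-0.10, limma adjusted p = 0.828). RMER4B summed to 1544 and 1709 and to 1299 and 1615 (-0.17, limma adjusted p = 0.715), so that its groups overlapped.

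RMER6C and RMER6D were each nearly a single copy. RMER6C_2994 held 85.6% of the reads of RMER6C and RMER6D_1533 held 92.3% of those of RMER6D, and these copies stood on adjacent rows of the table. RMER6C_2994, the RMER copy with the most reads, had 2667 and 2905 in the control and 2161 and 2751 in SON (log2 difference -0.19 ± 0.27 SE, limma adjusted p = 0.854). RMER6D_1533 had 2412 and 2120 in the control and 1786 and 2069 in SON (-0.23 ± 0.27 SE, limma adjusted p = 0.815). In both copies SON a was the lowest library and SON b lay near the GFP control. Without these copies RMER6C went from -0.13 to 0.27 and RMER6D from -0.26 to -0.55, so the sums of both names say little about their other copies.

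**Figure D3:**
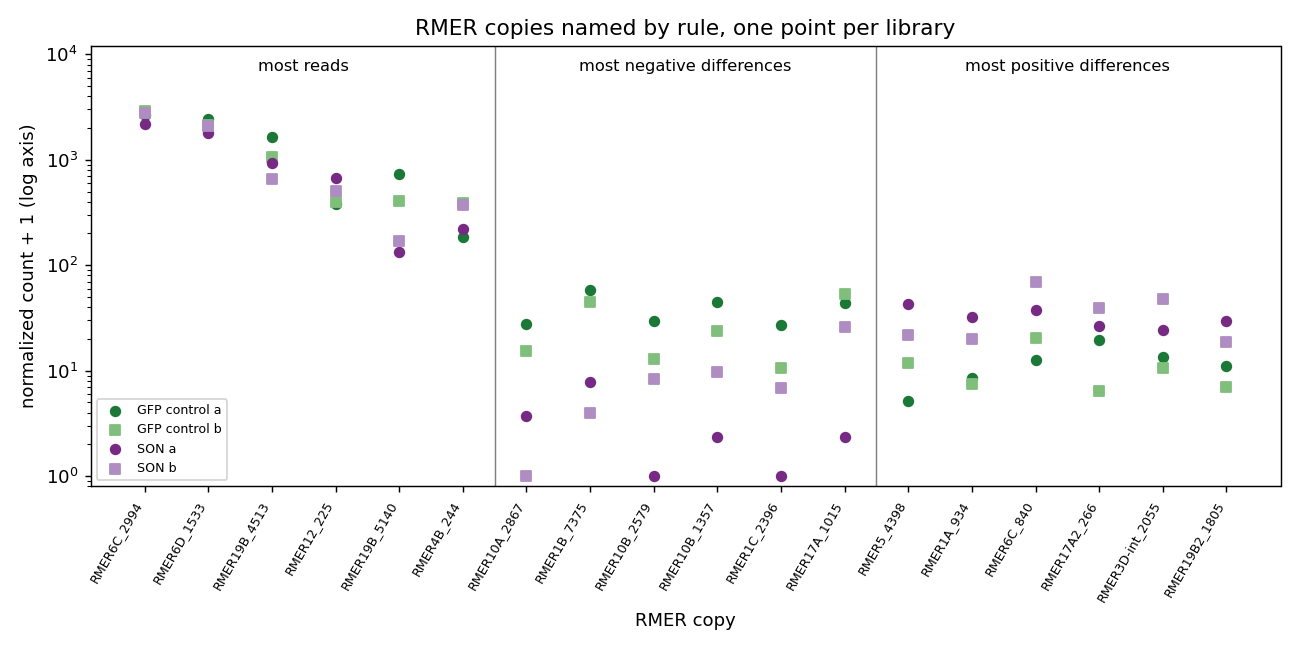
Normalized count plus 1 (log axis) in each library for 18 RMER copies: the 6 with the most reads, and the 6 most negative and 6 most positive differences among copies with at least 50 reads whose groups do not overlap. RMER19B_5140 is the only one of the first 6 whose SON values, 132 and 169, lie far below its GFP control values, 735 and 402.

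Among the other copies with many reads, RMER19B_5140 differed most. It had 735 and 402 normalized counts in the control and 132 and 169 in SON. The SON libraries were close to each other and far below both controls. The log2 difference was -1.86 (limma adjusted p = 0.166), and it was among the 6 copies that DESeq2 called (adjusted p = 0.0055). RMER19B_4513 had 1640 and 1059 in the control and 929 and 660 in SON (-0.75, limma adjusted p = 0.52). RMER12_225 lay the other way, with 379 and 395 in the control and 675 and 503 in SON (0.59, limma adjusted p = 0.549). RMER4B_244 had 186 and 392 in the control and 220 and 371 in SON (0.08), and its libraries differed more within the groups than between them.

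The copies with the most negative differences were taken from 148 that could be named, of 487 tested copies with at least 50 reads. RMER1B_7375 had 56.9 and 44.0 in the control and 6.79 and 2.94 in SON, the most uniform of the 6 (log2 difference -3.20, limma adjusted p = 0.165, DESeq2 adjusted p = 0.0142). RMER10A_2867 had 26.8 and 14.3 and then 2.72 and 0 (-3.42), RMER10B_2579 had 28.4 and 11.9 and then 0 and 7.35 (-2.75), and RMER1C_2396 had 25.9 and 9.52 and then 0 and 5.88 (-2.68). In each of these 3 the lower SON value came from 0 reads, so the fitted value depends on the pseudocount of 1. RMER10B_1357 had 43.5 and 22.6 in the control and 1.36 and 8.82 in SON (-2.75), and RMER17A_1015 had 42.7 and 53.0 and then 1.36 and 24.997 (-2.63). In RMER17A_1015 the SON libraries were farther apart on the log2 scale than SON b was from either control library. The limma adjusted p of the 5 copies beside RMER1B_7375 was between 0.314 and 0.527.

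The most positive differences were smaller and came from 67 copies that could be named. RMER5_4398 had 4.18 and 10.7 in the control and 42.1 and 20.6 in SON (1.97, limma adjusted p = 0.355). RMER1A_934 had 7.53 and 6.55 and then 31.3 and 19.1 (1.67), and RMER6C_840 had 11.7 and 19.6 and then 36.7 and 69.1 (1.67). The rule that named these copies required groups without overlap, so a lower SON value above the higher control value was set in advance. These 3 copies had 68, 56 and 121 reads over the 4 libraries. RMER17A2_266 had 18.4 and 5.36 in the control and 25.8 and 38.2 in SON (1.55), against the direction of its name as a whole. RMER3D-int_2055 had 12.5 and 9.52 and then 23.1 and 47.1 (1.51), and RMER19B2_1805 had 10.04 and 5.95 and then 28.5 and 17.6 (1.42). The limma adjusted p of the 6 lay between 0.329 and 0.487.

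Some copies that differed stood beside other repeats that differed the same way. Row numbers rose down the table within each of the 1040 repeat names, so the rows follow a common order, and the rows beside a copy were read as its neighbours without knowing the distance in bases. At rows 20956 to 20959 stood RMER17A_1014, RMER17A-int_230, RMER17A-int_231 and RMER17A_1015, which is the order LTR, internal part, internal part, LTR. RMER17A_1014 had 73.6 and 76.2 in the control and 27.2 and 20.6 in SON (log2 difference -1.62), and RMER17A-int_230 had 161 and 113 and then 35.3 and 24.997 (-2.14). RMER17A-int_231 had 25.1 and 24.99 and then 2.72 and 7.35 (-2.22). All 4 were lower in SON without overlap, each at an unadjusted limma p under 0.05, and DESeq2 called RMER17A-int_230 (adjusted p = 0.0122). The row before the 4 held an L1 copy, Lx3C_3479, with 114 and 93.4 in the control and 23.1 and 32.3 in SON, so a like difference was not limited to the RMER17A rows.

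**Figure D4:**
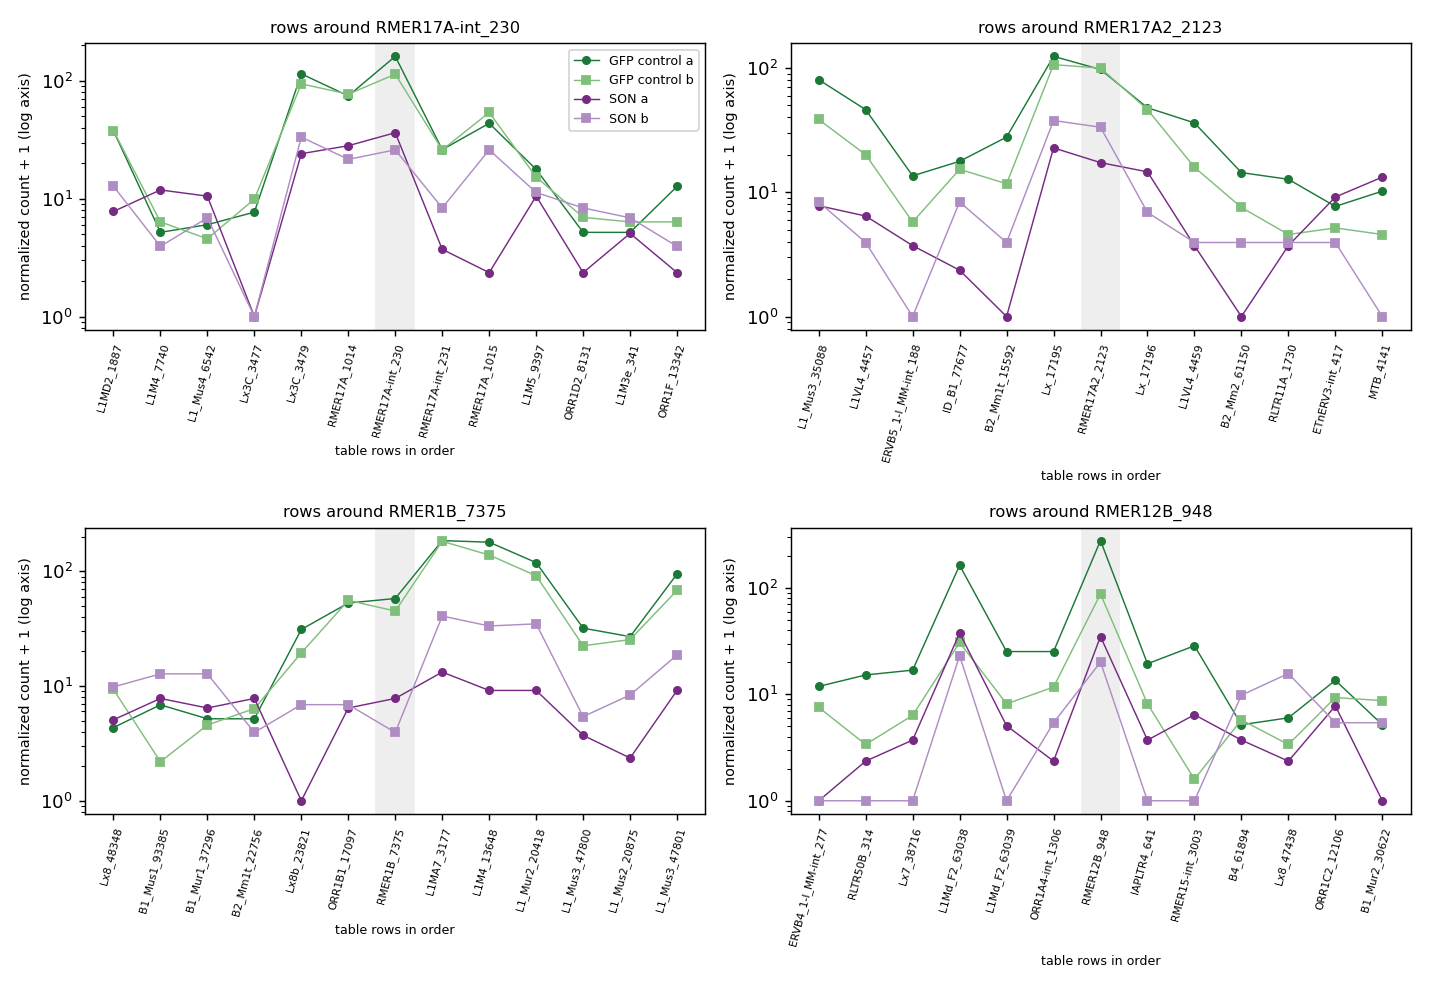
Normalized count plus 1 (log axis) in the 4 libraries for RMER17A-int_230, RMER17A2_2123, RMER1B_7375 and RMER12B_948 (shaded) and the 6 table rows on each side. Around RMER1B_7375, 8 of the 12 neighbours lay lower in both SON libraries than in both GFP control libraries, and around RMER17A2_2123, 10 of 12 did. Over all tested repeat copies 24.2% did.

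Neighbours that lay lower were also seen beside other copies that DESeq2 called. Over all tested repeat copies 24.2% lay lower without overlap and 17.1% higher. The neighbours also include untested rows with few reads, for which no such share was computed. The copies at the centre were picked for their own differences. RMER1B_7375 had 12 neighbours within 6 rows, of which 8 lay lower in SON without overlap, and its 8 tested neighbours were all negative with a median of -2.80. They were L1 and ORR1 copies, such as L1MA7_3177 with 184 and 181 in the control and 12.2 and 39.7 in SON. RMER17A2_2122 and RMER17A2_2123, which stood 7 rows apart with L1, B2 and other repeats between and around them, each had 10 of 12 neighbours lower. Their windows share the 6 rows between them, so these are not separate counts. RMER17A2_2122 had 166 and 73.8 in the control and 27.2 and 26.5 in SON (log2 difference -2.01, DESeq2 adjusted p = 0.0319). RMER17A2_2123 had 96.2 and 98.8 and then 16.3 and 32.3 (-2.04, DESeq2 adjusted p = 0.0474). The 9 and 7 tested neighbours of these copies were all negative, with medians of -2.29 and -2.59.

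RMER12B_948 had 278 and 86.9 in the control and 34.0 and 19.1 in SON (log2 difference -2.56, DESeq2 adjusted p = 0.00385), with 7 of 12 neighbours lower, although its GFP control libraries differed widely. RMER10B_1357, which DESeq2 did not call, had 11 of 12 neighbours lower, and its 6 tested neighbours had a median of -2.68. Beside RMER19B_5140 only 3 of 12 neighbours were lower, among them RMER19B_5136 on the adjacent row, with 153 and 81.5 in the control and 47.6 and 39.7 in SON. The pattern was not general. RMER10A_2867 had 4 of 12 neighbours lower, both adjacent rows among them, and 1 higher, while RMER10B_2579 had 1 lower and 7 higher and RMER1C_2396 had 1 lower and 2 higher.

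The 6 copies with the most positive differences were mixed in the same way, where 17.1% of all tested repeat copies lay higher without overlap and 24.2% lower. RMER1A_934 had 7 of 12 neighbours higher in SON without overlap, among them 3 internal copies of MurERV4, an endogenous retrovirus, and 0 lower. RMER6C_840 had 5 higher and 1 lower, and RMER19B2_1805 had 4 higher and 0 lower. RMER5_4398 had 4 higher and 4 lower, RMER3D-int_2055 had 3 and 3, and RMER17A2_266 had 2 and 2.

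**Figure D5:**
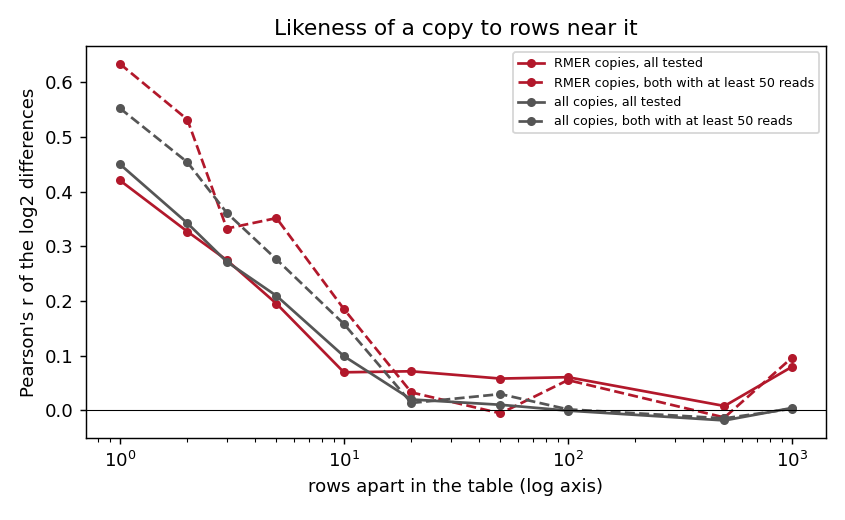
Pearson's r of the log2 differences of copies that stand a given number of table rows apart (horizontal log axis), for pairs with an RMER copy (red) and for all repeat copies (grey), with all tested copies (solid) or both copies at 50 reads or more (dashed). The RMER curves start at 0.42 and 0.63 on adjacent rows and are at or below 0.10 from 20 rows on.

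Over all tested RMER copies this likeness was a matter of a few rows. Pearson's r between the difference of an RMER copy and that of the adjacent row was 0.42 over 584 pairs, 0.33 at 2 rows, 0.20 at 5 rows and 0.07 at 10 rows. Among copies with at least 50 reads it was 0.63 over 321 pairs on adjacent rows and 0.19 at 10 rows. For all repeat copies on adjacent rows it was 0.45 over 9678 pairs, and 0.55 over 5766 pairs with at least 50 reads. RMER copies thus lay slightly lower than all copies in the first comparison and higher in the second. The likeness of adjacent rows was not limited to RMER copies. These are descriptions across copies of the same 4 libraries and carry no test. The median difference of the neighbours was negative for 41 of the 51 lower RMER copies (80.4%), for 9 of the 19 higher ones and for 358 of 613 others (58.4%). The 51 lower copies lay at 46 separate places, with 8 of them within 6 rows of another, and 0 of the 19 higher copies lay so near another.

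Genes that silence retroviral elements gave no calls, which with 2 libraries a group does not show that they were unchanged. Of 28 listed names, which include both names of the HUSH complex gene Fam208a (Tasor), 27 were found and tested. By limma, edgeR and DESeq2 0 of them were called, where the limma background over 15283 genes was 0.0196% lower and 0.0327% higher. At an unadjusted p under 0.05, 1 was lower and 0 were higher (limma backgrounds 6.57% and 5.99%). The median log2 difference was 0.07, that of all tested genes -0.01, and 10 of the 27 were negative. The gene table names its libraries I and II, which no label joins to the letters a and b. Fam208a had 978 and 779 in the control and 626 and 593 in SON, without overlap (-0.52, limma adjusted p = 0.36).

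Cbx3, which encodes a heterochromatin protein of the HP1 family, had 786 and 748 in the control and 635 and 488 in SON (log2 difference -0.46, limma adjusted p = 0.413). Mphosph8, another HUSH subunit, had 747 and 808 and then 829 and 1036 (0.25, limma adjusted p = 0.611). The most highly read members were Trim28, the corepressor that KRAB zinc finger proteins recruit, Cbx5, which encodes HP1 alpha, and Ehmt2, a histone H3 lysine methyltransferase. Trim28 had 5666 and 5676 in the control and 6514 and 5093 in SON, and Ehmt2 had 2981 and 2885 and then 2731 and 3335. Cbx5 had 2906 and 2724 in the control and 3898 and 2246 in SON. In all 3 the SON libraries lay on both sides of the GFP control values. No detection limit was computed for these genes, and at this number of libraries the difference of Fam208a was not called either.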

How the data were processed

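Messenger RNA was prepared with a TruSeq mRNA kit (v2), which does not mark strand, per the labels' protocols. The submitters' processing notes name STAR 2.4.0j, TopHat2 2.0.11, featureCounts, HTSeq 0.5.3p3, Subread, CASAVA 1.8.1 and DESeq2, and the build GRCm38 (mm10), without saying which tool made which table. The treatment of reads that match several copies was a point not given in the sources used here. The deposited tables hold a signal, which the authors made by dividing reads by 1 size factor per library, as 100% of values came out as whole reads (tolerance 0.01). The size factors of the repeat table were 1.20, 1.68, 0.736 and 0.680. All repeat columns were used by group, since no label joins their letters to the numerals of the titles, and 0 other columns of per-sample values were left out. No label says that libraries came from separate cultures, so p-values reflect only how these libraries vary, which may be technical. Virus and culture coincide with the groups and cannot be told apart from the delivered genes. Gene reads were 14680865 to 37097571 per library, and PCR copies could not be removed.

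The members, lists and tests were chosen with earlier results of these data known. limma 3.58.1 (R 4.3.3) was run on log2(value + 1), a pseudocount of 1, with a mean trend, two-sided and with Benjamini-Hochberg adjustment over all copies, names or genes that passed filterByExpr of edgeR 4.0.16. Fold changes on this scale understate those of low copies. The code was tested on simulated data. Alternatives were pseudocounts of 0.1 and 10, other filters and scalings, each library left out, a replicate block, edgeR, limma voom and DESeq2 1.42.0 on whole reads. The scaling outside ribosomal RNA names and the sums of a name without 1 or 2 of its copies were added after the data were seen. Named were the 6 copies and 5 names with the most reads and the 6 copies (at least 50 reads, groups without overlap) and 4 names with the largest differences each way. Named silencing genes were the 3 with the smallest p and the 3 with the highest mean. The copies called by DESeq2, the RMER17A rows, RMER19B_5136 and the table neighbours were named after their values were seen. No pair of libraries was a duplicate (chi-square per degree of freedom at least 2.73).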

Additional observations from a re-analysis of the deposited data

How the results depend on the processing

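The count of 0 RMER copies and 0 RMER names called by limma was kept with a pseudocount of 0.1 or 10, without the filter, with a minimum of 50 reads, under each scaling, edgeR and limma voom. DESeq2 called 6 copies and 2 names, and an adjusted p under 0.10 called 1 name. For names, the share called over all repeat names was computed only for the main limma fit and for DESeq2. The counts of names under the other alternatives thus have no background. A replicate block by column letter also called 6 copies (0.877% of those tested, and 0.903% of all repeat copies) and 2 names. The letters join the libraries of the groups only by name. Deviations of libraries with the same letter correlated at 0.10 over all copies and 0.14 over RMER copies. With 2 pairs this can neither show nor exclude a pairing. Leaving out each library in turn gave 0 to 63 called copies, where over all repeat copies 18 to 1158 of 17390 were called, and 0 to 1 called names. The median copy difference of -0.17 was -0.081 with a pseudocount of 10, -0.091 with TMM factors, -0.24 scaled to all repeat reads, -0.052 outside ribosomal RNA names and -0.20 to 0.018 with each library left out, of which the value without SON a, 0.018, has the other sign. The summed difference of -0.19 was -0.071 outside ribosomal RNA names and -0.29 to -0.089 with each library left out. The cause of these shifts was not tested. Silencing genes gave 0 calls under every alternative that was run for them. Of 480 values of named copies and names under the alternatives, 467 kept their sign, 13 did not and 29 passed an adjusted p of 0.05. Most RMER copies had under 50 reads, and 2 libraries a group limit what could be called.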

Other observations

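Some RMER copies differed more between the 2 libraries of a group than most copies differed between the groups. In the GFP control, RMER6C_4711 had 38.5 in library a and 201 in library b, a distance of -2.36 on the log2 scale (a minus b), and 114 and 250 in SON. RMER15_3073 had 6.69 and 37.5, and RMER1B_3230 had 58.6 and 17.3 with 6.79 and 5.88 in SON. In SON, RMER6A_973 had 10.9 in library a and 150 in library b (-3.67), with 49.4 and 36.3 in the GFP control. RMER5_1279 had 4.08 and 35.3, and RMER6A_992 had 5.44 and 35.3. These copies were chosen by their distance among copies with many reads, and no test was made.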
